A study of Mus musculus with 30 samples.

Results

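A set of 9 retinoic acid pathway genes was followed through poly(A) RNA-seq of mouse embryonic stem cells (ESCs) differentiated to the neural progenitor cell (NPC) stage. They were chosen by symbol in the count matrix as genes of retinoid uptake (Stra6), intracellular binding (Crabp1, Crabp2), retinaldehyde reduction (Dhrs3), breakdown (Cyp26a1, Cyp26b1) and reception (Rara, Rarb, Rarg). All 9 were found among 25400 genes, and all 9 were among the 16582 genes that passed the filter on low counts. The 24 libraries come from 8 lines with 3 libraries each, taken at day 8 of differentiation. WT cells are compared with Mbd3 KO cells, in which CRISPR-Cas9 removed MBD3, a subunit of the NuRD chromatin remodelling and deacetylase complex, and with Mbd3 KO cells that carry 1 of 6 constructs.

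The constructs were full-length MBD3a, MBD3ΔMBD (no methyl-CpG-binding domain), MBD2a, MBD2aΔGR (no glycine-arginine stretch, Mbd2a_delGR in the labels), MBD2aR181C (a point mutant of the methyl-CpG-binding domain, R64C in the count matrix and R191C elsewhere in the study) and MBD2t (no coiled coil). Each was a biotin-tagged cDNA under the CAG promoter, placed by cassette exchange at one genomic site, so all 6 rescue lines also carry the Mbd3 deletion. The lines were 3 clones each, except MBD2t, whose 3 libraries repeat 1 clone. The fitted p-values use a spread estimated over all lines together, so for MBD2t they cannot show how its clones would vary. The differentiation protocol adds retinoic acid after the aggregate stage in every line, WT included, so levels of the 9 genes were all measured in cells that had been given the ligand.

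Retinol enters cells through the receptor STRA6 and is oxidised to retinaldehyde and then to retinoic acid, while DHRS3 turns retinaldehyde back to retinol. CRABP1 and CRABP2 bind retinoic acid in the cytoplasm, the CYP26 enzymes hydroxylate it for breakdown, and the receptors RARα, RARβ and RARγ bind it in the nucleus as heterodimers with RXR on paired short sites in DNA. Several pathway genes are themselves retinoic acid targets, Cyp26a1 and Rarb being textbook examples, and the signal is known for its part in neural differentiation and hindbrain patterning.

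Both textbook targets carry a direct repeat of the receptors' hexamer site spaced by 5 bases (DR5) close to a transcription start. The hexamers searched, on both strands, were AGGTCA and its variants AGTTCA and also GGGTCA or GGTTCA, and the windows were 250 bases before to 50 after each RefSeq start (GRCm38.p6). A DR5 was found in the windows of 31 of 26994 genes, 0.115%. Windows were listed for 8 of the 9 members (Crabp2 had none), and only those of Rarb and Cyp26a1 held one. The same scan for repeats spaced by 1 or 2 bases found none in any member's windows, which says only that these letters are not in them. The repeats spaced by 1 and 2 bases stood in 0.263% and 0.311% of all genes.

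The 250 bases before the start of both genes are shown because their levels are set side by side further on, with the hexamers of the DR5 in capitals. The Cyp26a1 stretch is chr19:37697558-37697807 (plus strand), with the repeat on the opposite strand at -32 to -16 from the start, and the Rarb stretch is chr14:16575477-16575726 (minus strand), with the repeat at -53 to -37.
Cyp26a1: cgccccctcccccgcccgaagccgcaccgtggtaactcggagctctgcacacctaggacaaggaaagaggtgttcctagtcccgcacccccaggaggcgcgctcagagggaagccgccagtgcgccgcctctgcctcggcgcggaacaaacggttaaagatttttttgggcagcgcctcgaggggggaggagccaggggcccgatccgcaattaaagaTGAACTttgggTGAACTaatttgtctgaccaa
Rarb: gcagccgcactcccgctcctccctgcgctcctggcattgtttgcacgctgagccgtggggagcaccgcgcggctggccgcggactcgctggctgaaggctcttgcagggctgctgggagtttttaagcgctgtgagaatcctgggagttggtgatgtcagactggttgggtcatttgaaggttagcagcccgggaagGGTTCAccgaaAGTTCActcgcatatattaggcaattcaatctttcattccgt

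The table was counted on mm9, where both stretches matched exactly 1 place. The Cyp26a1 stretch ends next to the annotated start of the gene (chr19:37772298-37776018, plus strand), and the Rarb stretch lies 4 bases from an annotated start inside the longer gene model (chr14:17263356-17651381, minus strand). The other members lie at chr9:57911595-58001803 (Stra6), chr9:54612555-54620917 (Crabp1), chr3:87752588-87757298 (Crabp2), chr4:144482730-144518112 (Dhrs3), chr6:84521938-84543740 (Cyp26b1), chr11:98789132-98836256 (Rara) and chr15:102065369-102087948 (Rarg). Stra6 overlaps Gm16131 on its own strand and Ccdc33 on the other, and the strand setting of the counting is not given in the sources used here, so its counts are uncertain. Rara overlaps a small U6 RNA gene on its own strand, and how reads there were assigned is not given either.

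Libraries, named s01 to s24 as in the count matrix, held 27993858 to 49392806 counts. Levels are given as CPM, counts scaled to library size with TMM factors, and a count of 3 corresponds to at most 0.115 CPM. Mbd3 stood at 149 to 157 CPM in WT and at 34.2 to 73.8 CPM in Mbd3 KO. Mbd2 reached 253 to 700 CPM in the MBD2aΔGR, MBD2aR181C and MBD2t lines. In the libraries labelled MBD2a it stood at 67.0 to 87.2 CPM, against 64.2 to 70.9 CPM in Mbd3 KO (log2 difference 0.26, edgeR adjusted p = 0.508). The RNA therefore does not show that construct, and every direction for MBD2a below rests on its label. On a blot of ESC lines the study reports equal levels of MBD2a and MBD2aΔGR. That is protein at an earlier stage and not RNA of these libraries. One MBD2aΔGR library (s18) stood apart, with 8 markers of primitive and parietal endoderm summing to 7085 CPM against 496 and 601 CPM in the other two. Calls in this line are given with and without s18.

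In WT NPCs, levels scaled by exon length (RPKM, CPM per kilobase) differed widely among members. Cyp26b1 and Cyp26a1 were the highest at 318 ± 111 and 239 ± 32.9 RPKM (SD, n = 3), followed by Crabp2 at 220 ± 76.0 and Crabp1 at 153 ± 28.9 RPKM. Rarb stood at 88.7 ± 22.3, Dhrs3 at 83.1 ± 16.5 and Rara at 45.4 ± 13.2 RPKM. Rarg and Stra6 were the lowest at 8.03 ± 1.21 and 7.74 ± 1.81 RPKM. Values below are CPM, which compare one gene between lines.

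**Figure D1:**
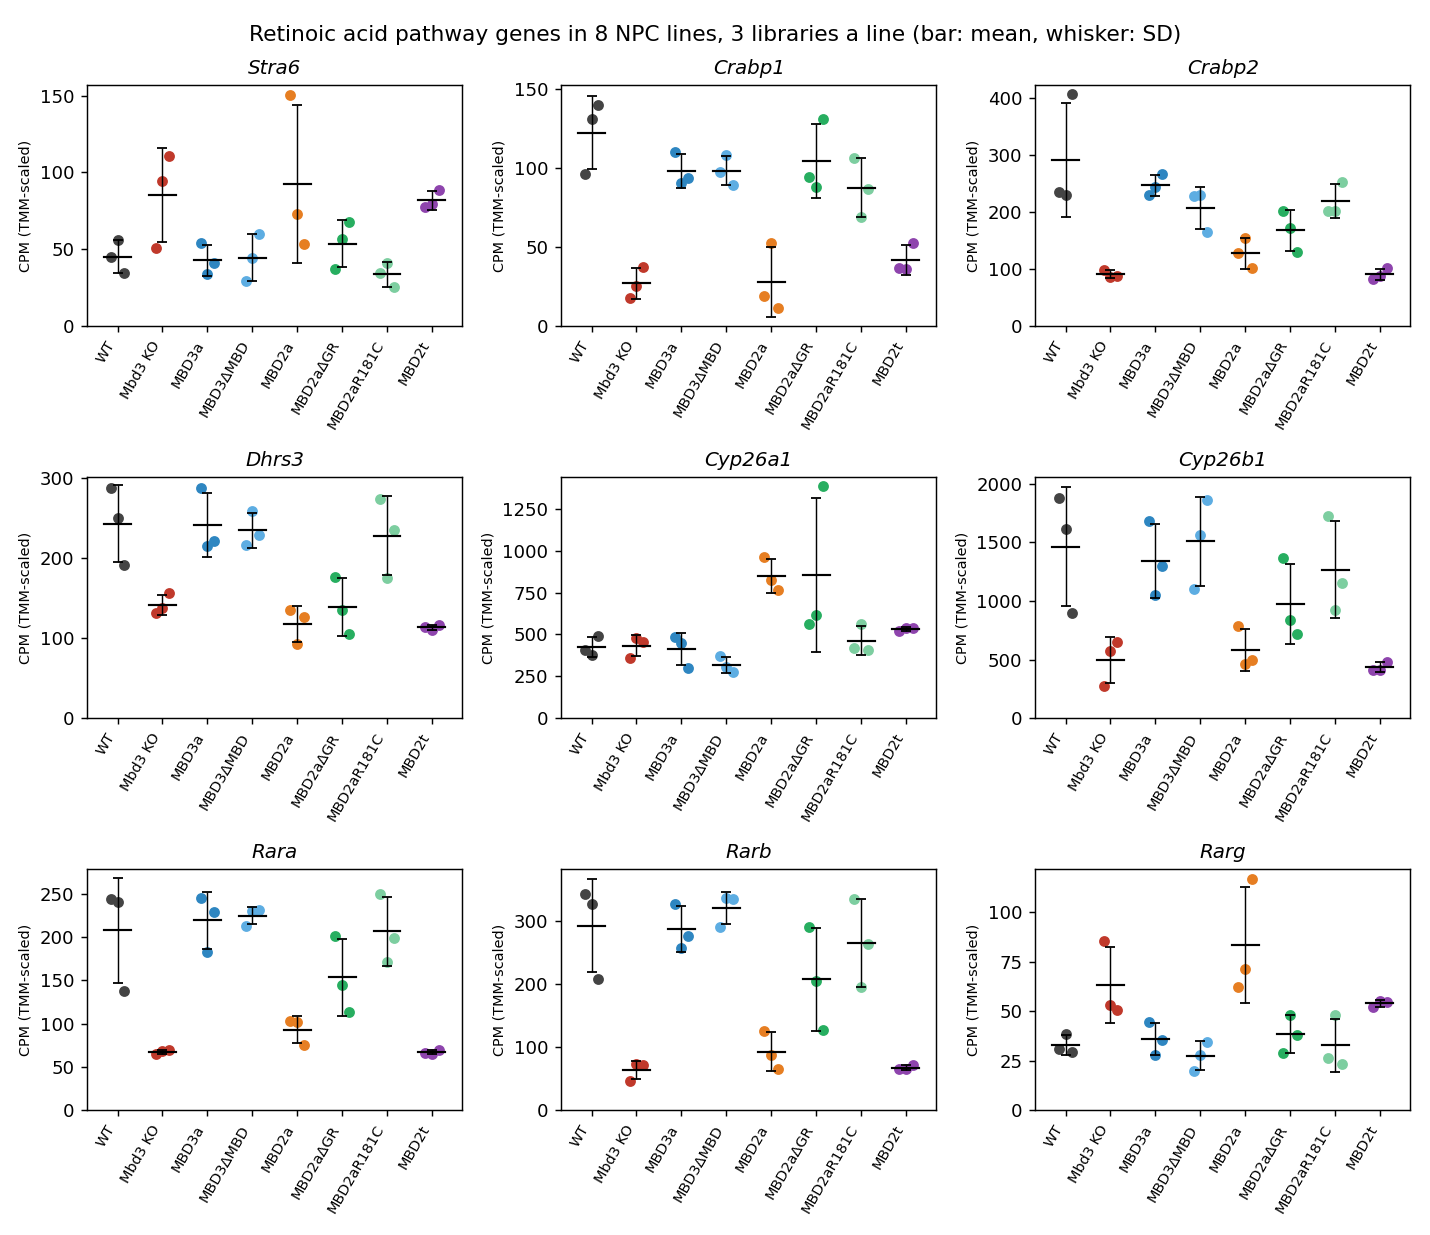
Levels (CPM, TMM-scaled) of the 9 genes (vertical axes from 0) in each of the 24 libraries, grouped by line, with horizontal bars for the mean and whiskers for the SD of 3 libraries. Rara, Rarb, Cyp26b1, Crabp1 and Crabp2 were low in Mbd3 KO, MBD2a and MBD2t, while Cyp26a1 had its highest means in MBD2a and MBD2aΔGR. In MBD2aΔGR library s18 held 1384 CPM of Cyp26a1 and the others 560.1 and 618.8 CPM, below every MBD2a library.

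Loss of Mbd3 went with lower expression of the abundant receptors, both binding proteins and one of the CYP26 enzymes. In Mbd3 KO 5 of the 9 genes were called lower than in WT and none higher, where called means a Benjamini-Hochberg adjusted p below 0.05 in edgeR's quasi-likelihood test and a log2 fold change beyond 1. In this comparison 33.8% of all tested genes were called, 14.2% lower and 19.6% higher. For 7 of the 9 the WT and KO libraries did not overlap, as for 62.2% of all genes. The median log2 fold change of the 9 was -1.55, and that of all genes tested was -0.03. The 9 genes were chosen with earlier results of these data known, so these figures describe them and are no test of the pathway. Fewer cells of a type and less RNA per cell cannot be told apart in these bulk libraries.

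Rarb, the receptor gene with the DR5 shown above, measured 341.7, 326.9 and 207.8 CPM in WT and 46.5, 73.1 and 71.3 CPM in Mbd3 KO. The lowest WT library was above the highest KO library, and the fitted level was 4.59-fold lower (log2 fold change -2.20, SE 0.288, adjusted p = 4.54e-06). Rara, the most broadly expressed receptor, measured 244.4, 241.0 and 137.9 CPM in WT and 64.8, 68.3 and 69.2 CPM in Mbd3 KO. The KO libraries lay within a few CPM of each other and below every WT library, and the level was 3.08-fold lower (log2 fold change -1.62, SE 0.212, adjusted p = 4.42e-06).

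Rarg went the other way without being called. It measured 31.0, 38.7 and 29.4 CPM in WT and 85.6, 53.4 and 50.8 CPM in Mbd3 KO. The groups did not overlap, and the log2 fold change of 0.94 (SE 0.295, adjusted p = 0.0102) stayed under the fold limit. The 3 receptor genes thus had opposite signs, with the 2 abundant ones lower and the scarce one at higher values.

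The binding proteins fell together. Crabp1 measured 96.2, 130.8 and 140.1 CPM in WT and 17.95, 25.3 and 37.5 CPM in Mbd3 KO, a 4.55-fold lower level (log2 fold change -2.18, SE 0.390, adjusted p = 0.000101). Crabp2, which carries retinoic acid to the nuclear receptors, measured 235.7, 230.8 and 407.3 CPM in WT and 98.4, 86.3 and 88.6 CPM in Mbd3 KO, a 3.20-fold lower level (log2 fold change -1.68, SE 0.212, adjusted p = 3.16e-06). For neither gene did any KO library reach the lowest WT library. The high Crabp2 value in WT came from library s03, the same library that was lowest of the WT libraries for Rara and Rarb.

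The CYP26 genes separated. Cyp26b1 measured 1879, 1618 and 895.5 CPM in WT and 276.2, 574.4 and 646.8 CPM in Mbd3 KO, and fell 2.93-fold with no overlap (log2 fold change -1.55, SE 0.348, adjusted p = 0.00084). Cyp26a1, the other gene with a DR5 at its start, measured 408.6, 375.0 and 488.5 CPM in WT and 361.0, 478.5 and 455.6 CPM in Mbd3 KO. Those ranges nearly coincided, with a log2 fold change of 0.03 (95% interval -0.51 to 0.56, adjusted p = 0.937). Of the 2 members with a DR5, one was therefore 4.59-fold lower and the interval of the other lay inside the fold limit. Among the 31 genes with a DR5, 9 were tested and 4 were called higher and 3 lower, Rarb among the lower, beside 19.6% higher and 14.2% lower of all genes.

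Dhrs3 and Stra6, which act at the entry of the pathway, were not called. Dhrs3 measured 287.5, 250.4 and 191.7 CPM in WT and 131.6, 137.3 and 155.9 CPM in Mbd3 KO, without overlap but short of the fold limit (log2 fold change -0.78, SE 0.195, adjusted p = 0.00205). Stra6 measured 45.1, 55.7 and 34.6 CPM in WT and 50.9, 94.6 and 110.4 CPM in Mbd3 KO, with overlap and a log2 fold change of 0.92 (SE 0.355, adjusted p = 0.032). Both Stra6 and Rarg were called higher under upper-quartile scaling (log2 fold changes 1.02 and 1.03), under library size alone (1.08 and 1.07), and when WT library s02 was left out (1.10 and 1.07), so both sit at the fold limit. Stra6 was also called without KO library s04 (1.18), and Rarg without s05 (1.05) or s06 (1.07).

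Markers of cell identity differed between the same lines. In Mbd3 KO all 6 neural progenitor markers and all 6 neuron markers tested were called lower than in WT, with summed levels of 138 to 182 CPM against 1257 to 1420 CPM for the progenitor list. All 7 pluripotent ESC markers and all 6 trophoblast markers were called higher, the ESC list summing to 312 to 992 CPM against 22.6 to 168 CPM in WT. The progenitor list summed to 140 to 287 CPM in MBD2a and 179 to 212 CPM in MBD2t. No marker was at 0 in every library of any line. The part of these differences in the levels of the 9 genes was not tested.

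In neither MBD3 line did a member pass the test against WT. By edgeR, none of the 9 genes was called in MBD3a (background 0.00% of all genes) or in MBD3ΔMBD (0.0181%), and DESeq2 also called 0 in both. At an unadjusted p below 0.05 there were 0 members in MBD3a and 1 in MBD3ΔMBD, Crabp2, beside 1.77% and 7.16% of all genes. The log2 differences ranged from -0.32 for Crabp1 to 0.13 for Rarg in MBD3a and from -0.49 for Crabp2 to 0.13 for Rarb in MBD3ΔMBD. The 95% interval for Rarb ran from -0.60 to 0.55 in MBD3a and from -0.44 to 0.71 in MBD3ΔMBD. That of Crabp1 ran from -1.10 to 0.46 and from -1.09 to 0.46, so for this gene a difference beyond the fold limit is not excluded. Stra6 and Dhrs3 differed from WT by -0.07 and -0.01 in MBD3a and by -0.02 and -0.05 in MBD3ΔMBD, and Cyp26a1 by -0.04 in MBD3a. In MBD3ΔMBD the libraries of Crabp2 and Cyp26a1 lay below every WT library, 2 of the 9 members. Lack of overlap, in either direction, was seen for 11.7% of all genes.

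In MBD3a the 5 genes that were low in the knockout were called higher than in Mbd3 KO, where 32.4% of all genes were called and 13.5% were higher (18.9% lower). Rarb stood at 326.8, 257.2 and 276.3 CPM in MBD3a, far above the KO libraries (log2 fold change 2.17, adjusted p = 6.15e-06), and Rara at 245.7, 183.1 and 229.3 CPM (1.70, adjusted p = 3.46e-06). Crabp1 (1.86), Crabp2 (1.44) and Cyp26b1 (1.43) completed the 5. In MBD3ΔMBD these 5 were also called higher (log2 fold changes 1.19 to 2.33) and Rarg lower (-1.20, adjusted p = 0.00178), where 35.9% of all genes were called, 15.0% higher and 20.9% lower. Rarg lost that call without KO library s04 (-0.92). Stra6 was just short of the fold limit in MBD3a (-0.99, adjusted p = 0.0233) and MBD3ΔMBD (-0.94, adjusted p = 0.0281). In both lines Stra6 was called lower by DESeq2 (-1.06 and -1.01) and under upper-quartile scaling (-1.10 and -1.09). WT and KO libraries are shared between these comparisons, so they are not independent of the one before.

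No member passed the test between MBD2t, which lacks the coiled coil, and the knockout. None of the 9 genes was called between MBD2t and Mbd3 KO, with log2 differences from -0.32 (Dhrs3) to 0.63 (Crabp1), where 0.0241% of all genes were called by edgeR. DESeq2 called 0, and 0 had an unadjusted p below 0.05, beside 3.44% of all genes. The libraries did not overlap for 2 members, Dhrs3 (lower in MBD2t) and Cyp26a1 (higher in MBD2t), as for 3146 of all 16582 genes. The 95% interval ran from -0.50 to 0.66 for Rarb and from -0.16 to 1.42 for Crabp1, the widest of the 9. Against WT, 6 members were called lower and none higher, where 33.4% of all genes were called, 15.1% lower and 18.2% higher. Rarb stood at 64.7, 65.1 and 72.1 CPM (log2 fold change -2.12 against WT, adjusted p = 6.57e-06) and Rara at 65.8, 65.4 and 69.5 CPM (-1.63, adjusted p = 4.25e-06). Cyp26b1 (-1.75), Crabp2 (-1.69), Crabp1 (-1.55) and Dhrs3 (-1.10) were the others. Dhrs3 lost its call under upper-quartile scaling (-0.994), under library size alone (-0.94) and without WT library s01 (-0.97). Stra6 (0.86, adjusted p = 0.0442) and Rarg (0.71, adjusted p = 0.0432) stayed under the fold limit, and Stra6 was called under library size alone (1.02) and without s02 (1.03). Cyp26a1 measured 521.1, 537.5 and 537.6 CPM and was not called (0.33, adjusted p = 0.282).

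In the libraries labelled MBD2a all 9 genes were called against WT, 6 lower and 3 higher, where 30.6% of all genes were called (13.7% lower, 16.9% higher). Rarb stood at 125.7, 86.8 and 64.7 CPM (log2 fold change -1.66, adjusted p = 9.24e-05) and Rara at 102.7, 101.9 and 75.0 CPM (-1.16, adjusted p = 0.000165), both below every WT library. Crabp1 varied most among these 3 clones, at 18.7, 52.7 and 11.1 CPM (-2.16, adjusted p = 0.000164). Cyp26b1 (-1.33), Crabp2 (-1.19) and Dhrs3 (-1.04) were the other genes called lower.

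Cyp26a1, Rarg and Stra6 were called higher in MBD2a. Cyp26a1 measured 960.8, 826.4 and 762.4 CPM, above all WT and all KO libraries, and its fold change lay at the limit (log2 fold change 1.00, SE 0.259, adjusted p = 0.00309). Rarg measured 62.1, 71.2 and 116.9 CPM (1.34, SE 0.296, adjusted p = 0.000948), with no overlap. Stra6 measured 150.7, 72.9 and 53.2 CPM, the last inside the WT range (1.03, SE 0.356, adjusted p = 0.0194), and without library s13 its log2 fold change was 0.49 (adjusted p = 0.229). Leaving out s13 also took Cyp26a1 under the fold limit, at 0.92 (adjusted p = 0.0118), as did leaving out WT library s01 (0.97) or s02 (0.92). Stra6 was also not called without WT library s01 or s03 (adjusted p = 0.0526 and 0.0756). Dhrs3 lost its call without s01 (-0.91) or MBD2a library s14 (-0.89), and Crabp2 without s03 (-0.87). Under library size alone Dhrs3 (-0.88) and Rara (-0.999) were just short of the limit.

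No member was called between MBD2a and Mbd3 KO by edgeR or DESeq2, where 5.25% of all genes were called by edgeR. At an unadjusted p below 0.05 there were 3 members (Cyp26a1, Rara and Crabp2), beside 22.6% of all genes. Cyp26a1 came closest, with a log2 fold change of 0.98 (SE 0.259, adjusted p = 0.0221) and no overlap, and it passed the fold limit without library s05, s14 or s15 (1.05, 1.00 and 1.04). For Rarb, Rara and Crabp2 the differences were 0.54, 0.47 and 0.49 with adjusted p of 0.267, 0.184 and 0.161. Summed endoderm markers stood at 1478, 326 and 1346 CPM in the MBD2a libraries, in the order in which Cyp26a1 is given above, and at 420 to 468 CPM in WT. Their part in the Cyp26a1 level was not tested.

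The lines with altered forms of MBD2a had levels closer to WT than the MBD2a line did for most members. In MBD2aR181C no member was called against WT by edgeR or DESeq2, where 0.0181% of all genes were called by edgeR. An unadjusted p below 0.05 was seen for 0 members, beside 3.95% of all genes, with differences from -0.49 (Crabp1) to 0.12 (Cyp26a1). The interval of Crabp1 ran from -1.26 to 0.29 and that of Stra6 from -1.17 to 0.32, both past the fold limit. Set directly against MBD2a, 6 of the 9 were called, 4 higher and 2 lower, where 27.3% of all genes were called, 12.2% higher and 15.1% lower. Rarb stood at 335.0, 195.2 and 263.9 CPM (log2 fold change against MBD2a 1.52, adjusted p = 0.000256), Rara at 250.3, 171.0 and 198.7 CPM (1.15, adjusted p = 0.000219) and Rarg at 26.6, 48.3 and 23.4 CPM (-1.35, adjusted p = 0.00106). Crabp1 (1.67), Cyp26b1 (1.12) and Stra6 (-1.46) were the other called genes. Cyp26b1 was not called under upper-quartile scaling (0.993), under library size alone (0.958) or without s14, s15 or s19 (adjusted p = 0.0588, 0.0548 and 0.0963). Rara was not called under library size alone (0.994) or without s19 (0.957), nor Stra6 without s13 (-0.91). Dhrs3 (0.95) was called without s13 (1.05) or s20 (1.09), so that leaving out 1 library gave 4 to 8 members. Cyp26a1 was 416.5, 560.7 and 407.5 CPM in MBD2aR181C, below all MBD2a libraries and short of the fold limit (-0.88, adjusted p = 0.00849), which it passed without s20 (-1.06), under upper-quartile scaling and under library size alone (-1.03). Against Mbd3 KO 6 members were called, where 31.1% of all genes were called. The log2 fold changes of these 6 members were 2.06 (Rarb), 1.70 (Crabp1), 1.62 (Rara), 1.35 (Cyp26b1), 1.27 (Crabp2) and -1.34 (Stra6). Rarg (-0.95, adjusted p = 0.0103) stayed under the fold limit there and was called lower by DESeq2 (-1.03) and under upper-quartile scaling (-1.06).

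The MBD2aΔGR clones differed among themselves. Rarb measured 289.9, 205.1 and 127.0 CPM and Rara 201.3, 145.1 and 114.0 CPM, from inside the WT range to below it, with s18 the lowest for both. Against WT the log2 fold changes were -0.49 for Rarb (adjusted p = 0.261) and -0.44 for Rara (adjusted p = 0.183), and without s18 they were -0.24 and -0.26. Against Mbd3 KO 3 genes were called higher, Crabp1 (1.96), Rarb (1.70) and Rara (1.19), where 25.2% of all genes were called, 9.86% higher and 15.3% lower (28.5% without s18). Without s18 Cyp26b1 (1.14) and Crabp2 (1.04) joined them, without s05 or s17 Cyp26a1 (1.02 and 1.12) and Cyp26b1 (1.06 and 1.04) did, and without s16 Rara was not called (0.90).

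Set against MBD2a, 3 of the 9 genes were called in MBD2aΔGR, Crabp1 (1.93) and Rarb (1.17) higher and Rarg (-1.12) lower, where 18.6% of all genes were called, 8.02% higher and 10.6% lower (22.9% without s18). Those 3 were also called without s18 (1.73, 1.42 and -1.11), but only Crabp1 was called without library s16 (Rarb 0.81, Rarg -0.99). Without MBD2a library s15 Crabp1 and Stra6 (-1.08) were called and Rarb (0.96) and Rarg (-0.80) were not. In a fit of the 2 lines alone none was called (adjusted p of 0.0642, 0.0749 and 0.0503).

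Cyp26a1 was the only member called in MBD2aΔGR against WT, where 5.16% of all genes were called, 2.69% higher and 2.47% lower. That share rests on single libraries, with 856 genes called in all, 121 (0.722%) without s18, 182 without s01, 252 without s02 and 1914 without s16. In a fit of the 2 lines alone it was 13 genes. Cyp26a1 measured 560.1, 618.8 and 1384 CPM, all above WT (log2 fold change 1.01, SE 0.259, adjusted p = 0.0253), and the highest was s18, the library with the endoderm markers at 7085 CPM. Without s18 the log2 fold change was 0.48 (adjusted p = 0.266). The call of Cyp26a1 was also lost without WT library s01 (0.94, adjusted p = 0.101) or s02 (0.89, adjusted p = 0.093), and in a fit of the 2 lines alone (1.01, adjusted p = 0.372). The part of the endoderm markers in the Cyp26a1 level was not tested. Dhrs3 (-0.81, adjusted p = 0.0207) and Crabp2 (-0.79, adjusted p = 0.027) lay below every WT library and under the fold limit, at -0.64 for both without s18. Without s16 Dhrs3 was called lower (-1.06, adjusted p = 0.00383). Cyp26b1 (-0.59), Crabp1 (-0.23), Rarg (0.22) and Stra6 (0.25) had an adjusted p of 0.283 or more.

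**Figure D2:**
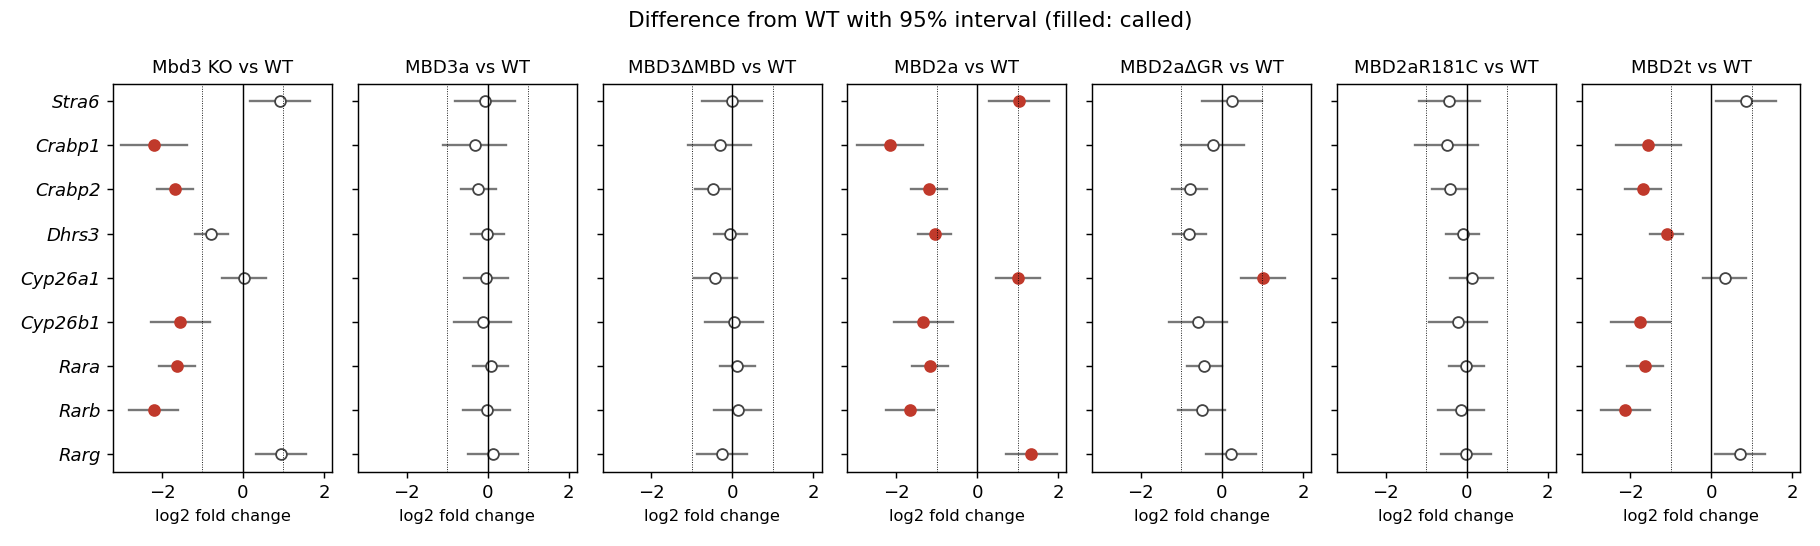
Log2 fold change of each gene against WT in the 7 other lines (horizontal axes), with 95% intervals from the edgeR fit. Filled points are called, and dotted lines mark the fold limit of 1. In Mbd3 KO, MBD2a and MBD2t the points of 6 genes lie below 0, and Cyp26a1 was called in MBD2a and MBD2aΔGR but not in the other 5 lines. The call of Cyp26a1 in MBD2aΔGR was lost without library s18.

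The order of the lines was nearly the same for Rara and Rarb. MBD3ΔMBD, MBD3a, WT and MBD2aR181C held the 4 highest means for both genes, and each overlapped its neighbour. MBD2aΔGR came next and overlapped MBD2aR181C, with its lowest library above the highest MBD2a library for both genes, by 127.0 against 125.7 CPM for Rarb. MBD2a, MBD2t and Mbd3 KO held the last 3 places. For Crabp1 the break came between MBD2aR181C (lowest library 69.1 CPM) and MBD2t (highest 52.6 CPM), with MBD2aΔGR on the high side. For Dhrs3 it came between MBD2aR181C (lowest 175.2 CPM) and Mbd3 KO (highest 155.9 CPM), with MBD2aΔGR at 176.7, 135.0 and 104.8 CPM reaching across it. Cyp26b1 had overlapping neighbours all the way from 1508 CPM in MBD3ΔMBD to 434 CPM in MBD2t.

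On the length-scaled levels, the make-up of the receptor RNA differed between lines. In WT, Rarb made up 62.4% ± 0.816, Rara 31.7% ± 1.46 and Rarg 5.84% ± 1.27 (SD, n = 3) of the summed RPKM of the 3 genes. In Mbd3 KO libraries the Rarg share was 42.4%, 25.9% and 25.1%, above every WT library, and the Rarb share was 28.7%, 44.3% and 44.1%. The Rara share stayed between 28.8% and 30.8% in Mbd3 KO. The summed level was 49.5 ± 0.573 RPKM in Mbd3 KO and 142 ± 36.2 RPKM in WT.

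Rarg shares averaged 30.1% ± 12.5 in MBD2a and 27.3% ± 0.952 in MBD2t, and 4.33% to 9.65% in the other 4 rescue lines. With 3 libraries against 3 a two-sided exact permutation test cannot go below p = 0.1, and it gave p = 0.1 for the Rarg share in Mbd3 KO, MBD2a and MBD2t, each against WT. In MBD2aΔGR the shares were 5.10%, 11.1% and 12.8% and the exact permutation p was 0.3.

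The CYP26 shares moved as well. Cyp26a1 was 36.1%, 37.6% and 58.6% of the summed Cyp26a1 and Cyp26b1 RPKM in the WT libraries, and 77.2%, 68.4% and 64.6% in Mbd3 KO. It averaged 79.4% ± 3.14 in MBD2a and 76.1% ± 1.60 in MBD2t, and the exact permutation p was 0.1 for all 3 lines against WT. In MBD2aΔGR it was 51.6%, 65.7% and 83.3%, highest in s18, with an exact permutation p of 0.2 against WT. The summed level of the 2 genes was 557 ± 84.5 RPKM in WT, 352 ± 76.5 in Mbd3 KO and 606 ± 93.9 in MBD2a. The shares of Mbd3 KO and MBD2a overlapped, and their summed levels did not overlap (exact permutation p = 0.1, two-sided).

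**Figure D3:**
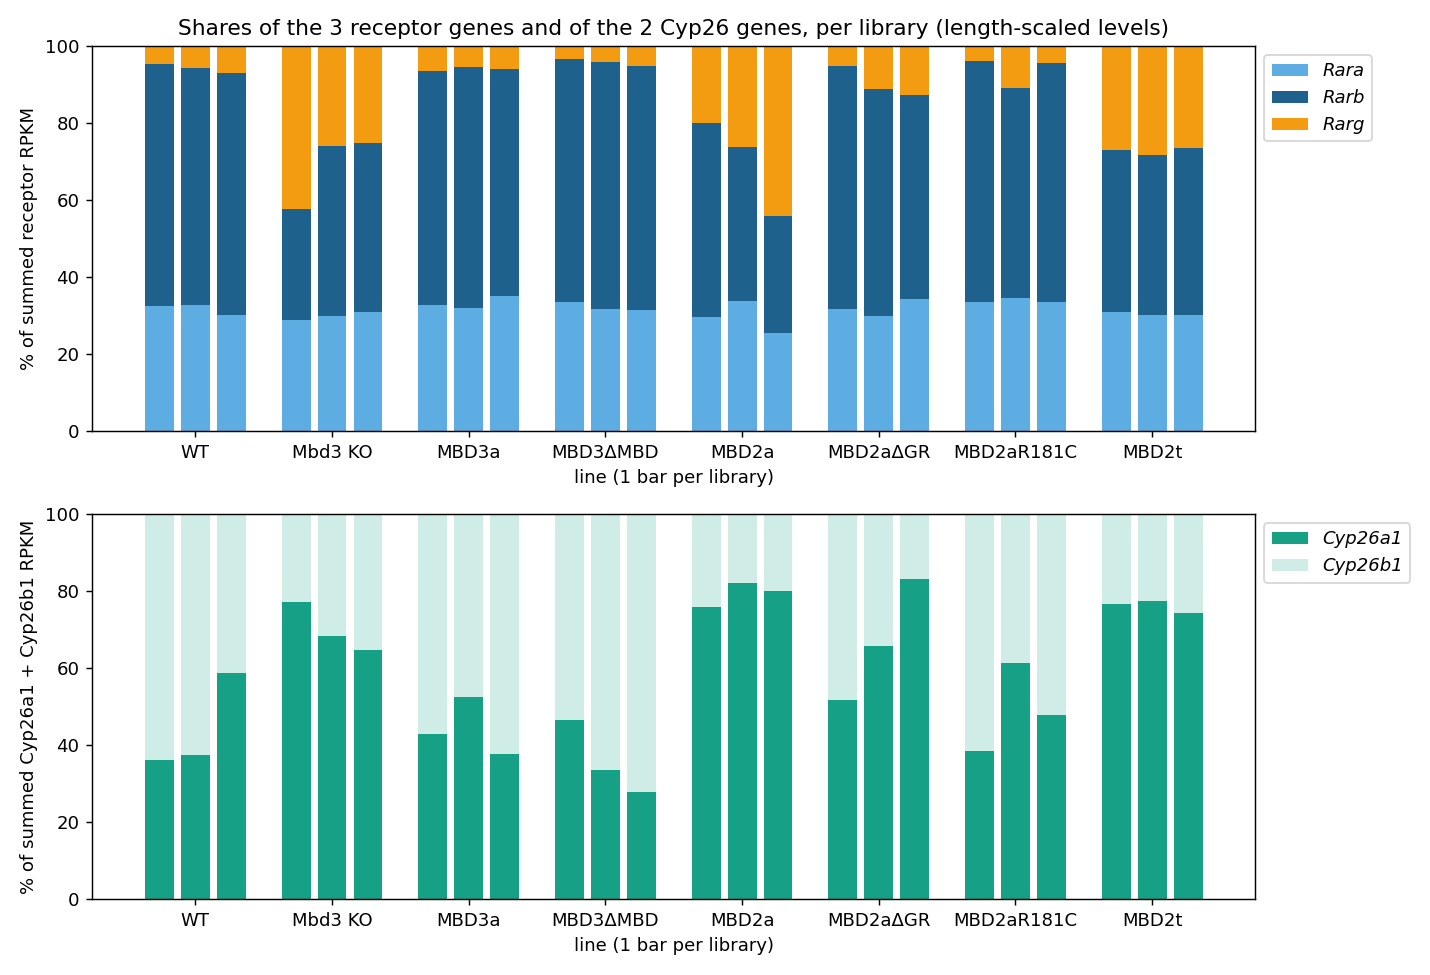
Share of each receptor gene in the summed RPKM of Rara, Rarb and Rarg (upper) and of Cyp26a1 and Cyp26b1 in their sum (lower), as percent on the vertical axes, with 1 bar for each library. The Rarg share was 19.96% or more in all libraries of Mbd3 KO, MBD2a and MBD2t and 12.8% or less in all others.

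Libraries of one line also differed in a shared pattern. In 7 of 8 lines the library with the least Rarb also had the least Rara, in 6 it had the least Cyp26b1, and in 6 the least Dhrs3. Over the deviations of 24 libraries from their line means, Pearson's r on the log2 scale was 0.877 for Rara with Rarb, 0.883 for Cyp26b1 with Rarb and 0.802 for Dhrs3 with Cyp26b1. The points share their libraries and scaling, so these values are descriptions. How many of all genes follow the same pattern was not counted. Cyp26a1 did not follow, with r of -0.412 with Rarb and -0.244 with Cyp26b1, and neither did Crabp2 (0.047 with Rarb). Values with Rarb were also low for Crabp1 (0.168) and Stra6 (0.365) and negative for Rarg (-0.436).

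Marker levels moved with this pattern. In 8 of 8 lines the library with the least Rarb was the one with the highest sum of pluripotent ESC markers, and in 8 of 8 it had the lowest sum of neuron markers (r of -0.859 and 0.82 over the deviations). It also had the lowest mesenchyme sum in 8 of 8 lines (0.716), the lowest progenitor sum in 7 (0.787) and the highest trophoblast sum in 7 (-0.753). The r of Rarb with the endoderm sum was -0.284. In MBD2t, with 1 clone, the least Rarb was 64.7 CPM against 65.1 CPM in the next library. In WT the library with the least Rarb was s03, with 168 CPM of ESC markers and 992 CPM of neuron markers, against 22.6 and 37.2 CPM and 2249 and 1894 CPM in the others. In MBD2aR181C it was s20, with 308 CPM of ESC markers against 26.0 and 124 CPM. Among the marker lists Cyp26a1 had its highest r with the endoderm sum (0.711, Spearman's rho 0.478), where s18 is the farthest point. The part of these markers in the levels was not tested.

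**Figure D4:**
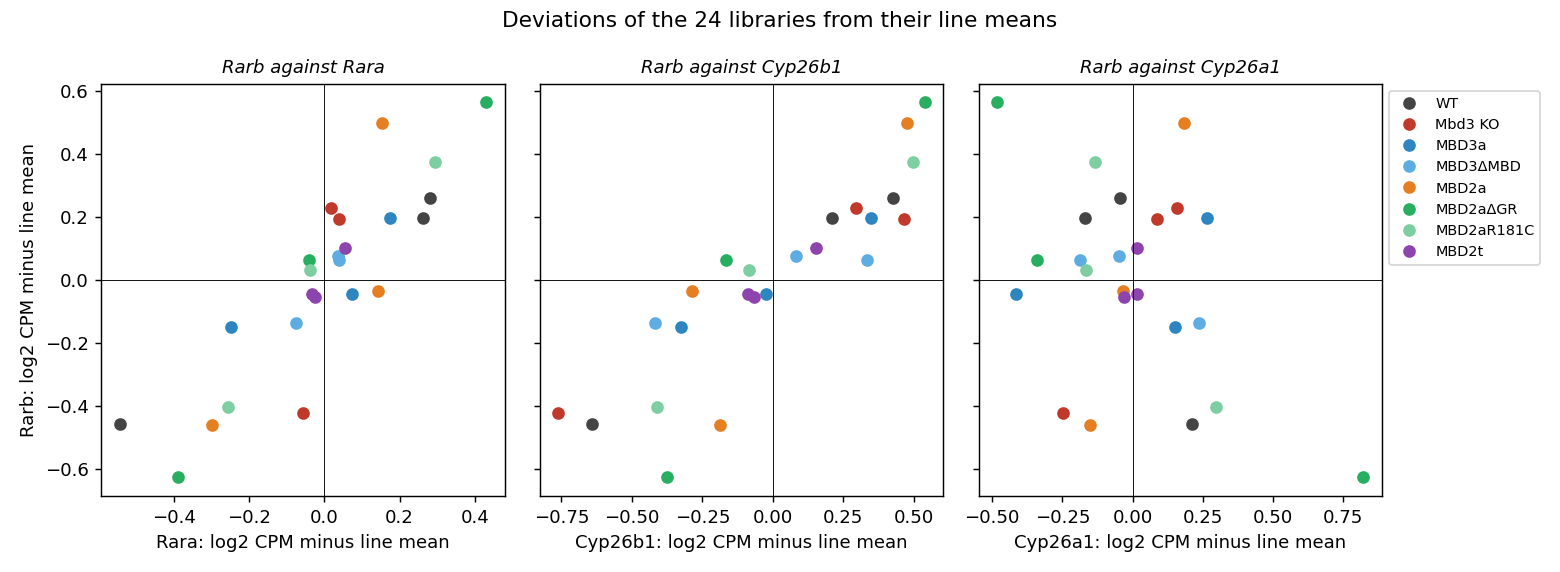
Deviation of each library from the mean of its line (log2 CPM) for Rarb (vertical axis) against Rara, Cyp26b1 and Cyp26a1 (horizontal axes), colored by line. Points rise together for Rara and Cyp26b1 but not for Cyp26a1, where the MBD2aΔGR library s18 lies at the lower right.

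Other genes of retinoid transport, synthesis, signalling and response did not move in one direction. Of a list of 30, 27 were tested (Rbp2, Cyp26c1 and Hoxd4 were not). In Mbd3 KO against WT 11 were called higher, 4 lower and 12 neither, beside 19.6% higher and 14.2% lower of all genes. The median log2 fold change was 0.62 in the list and -0.03 over all genes. This list was also chosen with earlier results of these data known, so its counts and median are descriptions. In MBD2t the counts were 10 higher and 4 lower (all genes 18.2% and 15.1%), and in MBD2a 9 and 3 (16.9% and 13.7%), of which 4 and 3 were left without MBD2a library s15 (Rbp4, Ttr, Aldh1a1, Bco1 and Adh7 lost their calls). In MBD2aΔGR 4 were called higher, Rbp4, Ttr, Rdh10 and Bco1 (all genes 2.69%), and none of the 27 without s18, s01 or s02. MBD3a, MBD3ΔMBD and MBD2aR181C had none called by edgeR or DESeq2 in either direction. In these lines 0 of the 27 had an unadjusted p below 0.05, beside 1.77%, 7.16% and 3.95% of all genes.

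Among carriers and uptake genes 2 rose and 1 fell of 5 in Mbd3 KO. Rbp4, the plasma carrier of retinol, rose from 1.40, 2.78 and 8.11 CPM in WT to 48.3, 49.8 and 52.8 CPM in Mbd3 KO (log2 fold change 3.60, adjusted p = 0.0109). In MBD2aΔGR (4.93, adjusted p = 0.0212) it was at 362 CPM in s18 and at 9.12 and 7.98 CPM in the other libraries, and its log2 fold change without s18 was 1.04 (adjusted p = 0.585). Rbp7, a cellular retinol-binding protein, was called higher (adjusted p = 0.000997) from 0.0941 to 0.773 CPM, with only 2 to 6 reads in WT libraries. Fabp5, a fatty-acid-binding protein that can also carry retinoic acid, fell from 154 to 44.9 CPM (-1.78, adjusted p = 3.23e-07).

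Of 8 synthesis genes 5 were called higher and none lower, where 19.6% of all genes were higher and 14.2% lower. Aldh1a2, the main embryonic retinaldehyde dehydrogenase, measured 11.3, 11.4 and 5.92 CPM in WT and 6.43, 116 and 128 CPM in Mbd3 KO (log2 fold change 3.13, adjusted p = 0.00295), so 1 KO library stayed in the WT range. Its level was 47.8, 46.8 and 51.3 CPM in MBD2t. Bco1, which cleaves carotene, was called higher (adjusted p = 0.00206) at 0.663 CPM against 0.0697 CPM, but WT libraries held 2 to 3 reads and no fold is given. Adh7, an alcohol dehydrogenase, rose from 0.157 to 1.22 CPM (2.90, adjusted p = 0.000166). Its WT libraries held only 4 to 7 reads, so the fold is uncertain. Adh1 (2.49) and Aldh1a3 (1.74) were the others. For Adh1 the lowest KO library, at 1.37 CPM, lay in the WT range of 1.07 to 3.58 CPM. Aldh1a1, another retinaldehyde dehydrogenase, was called in MBD2a (2.13, adjusted p = 0.00883), and Rdh10, which oxidises retinol, in MBD2aΔGR (2.28, adjusted p = 0.028). Rdh10 was at 214 CPM in s18 against 29.4 and 24.96 CPM in the other two, and its log2 fold change without s18 was 0.56. Bco1 was called there on 55 reads in s18, with 1 and 2 reads in the others.

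Receptor partners and cofactors mostly stayed below the fold limit. Among the 3 RXR genes only Rxrg was called, lower at 0.288 against 0.942 CPM (-1.69, adjusted p = 0.00853), while Rxra (0.16) and Rxrb (-0.32) were not. Rxrg had only 8 to 14 reads in Mbd3 KO libraries. Among 5 cofactors only Nrip1, a ligand-dependent corepressor, was called (1.05, adjusted p = 0.00023), at 161 against 77.8 CPM.

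Known direct targets split, with 3 called higher and 2 lower of 6 in Mbd3 KO. Tgm2, a transglutaminase, had the largest difference of the list, from 17.2, 41.5 and 36.3 CPM in WT to 836, 586 and 784 CPM in Mbd3 KO (log2 fold change 4.54, SE 0.530, adjusted p = 1.47e-06). Cdx1, a posterior homeobox gene, rose from 3.29 to 27.8 CPM (3.05, adjusted p = 0.00397), and Hoxb4 fell from 245 to 42.2 CPM (-2.54, adjusted p = 1.63e-06). Stra8 (2.28) was also called higher and Hoxa4 (-2.08) also called lower. Hoxb1, a hindbrain homeobox gene, was not called there (0.63, adjusted p = 0.13) but was called higher in MBD2a (123 against 26.8 CPM, adjusted p = 6.89e-05) and at the fold limit in MBD2t (1.03, adjusted p = 0.0168). Stra8 already varied from 32.4 to 333 CPM among WT libraries, highest in s03. Outside the Mbd3 KO comparison, Ttr, which carries retinol-bound RBP4, was called in MBD2a (3.77) and MBD2aΔGR (5.27), with 50.5 CPM in s18 and 0.706 and 0.804 CPM in the other MBD2aΔGR libraries. Without s18 its log2 fold change in MBD2aΔGR was 0.74 (adjusted p = 0.835).

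**Figure D5:**
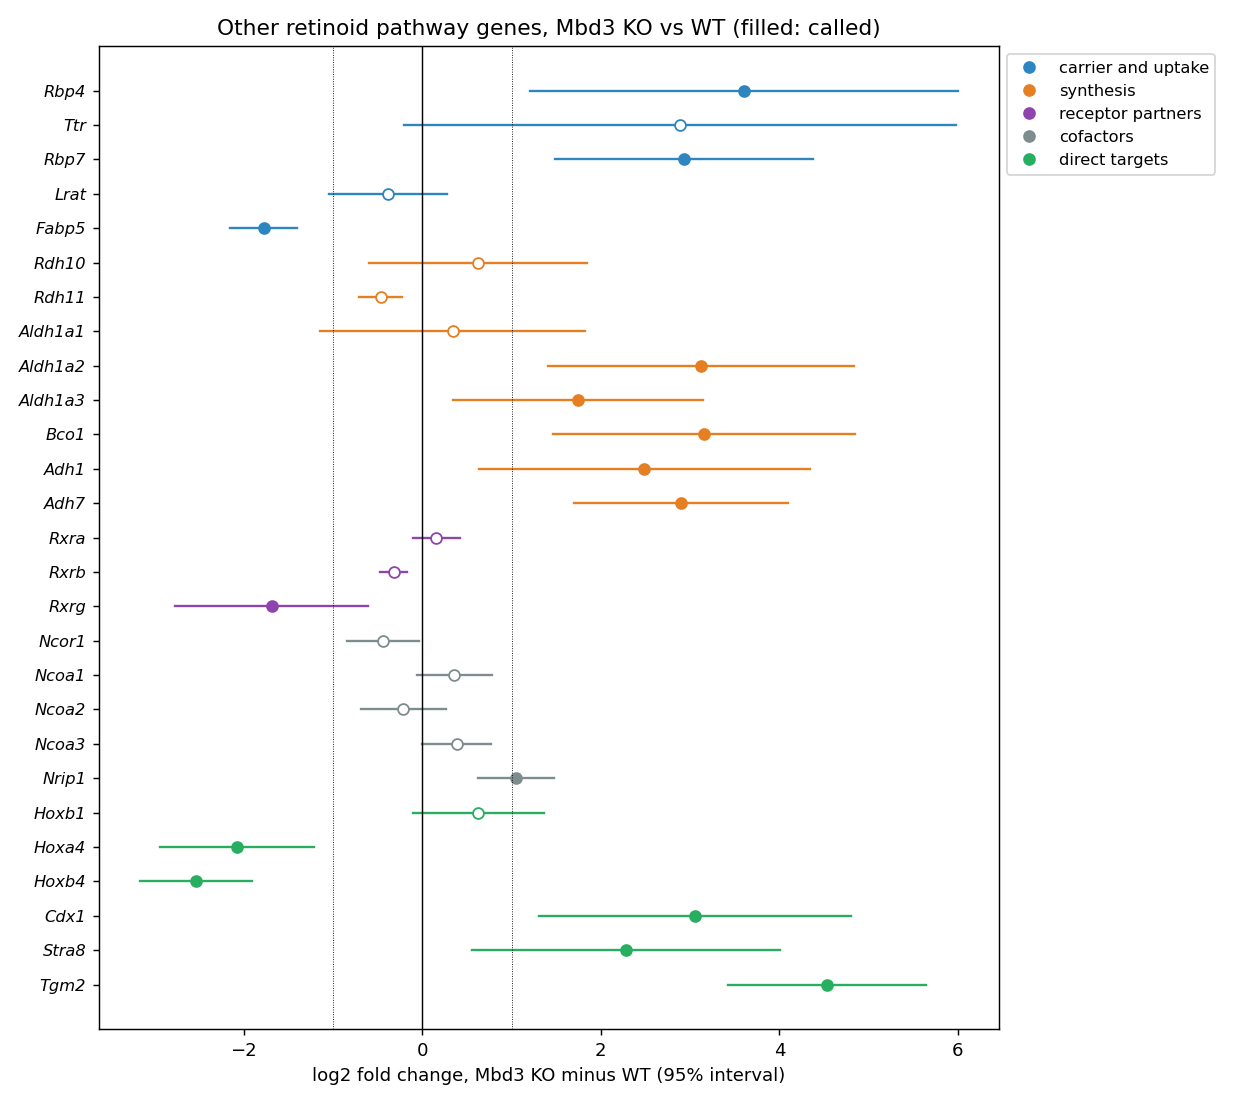
Log2 fold change in Mbd3 KO against WT (horizontal axis) with 95% intervals for the 27 other retinoid pathway genes tested, colored by role, with filled points for called genes and dotted lines at the fold limit. Synthesis genes called were all higher, and direct targets lay on both sides of 0.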

How the data were processed

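Total RNA of NPCs was poly(A)-selected, and directional libraries were sequenced by the authors, trimmed with Trim Galore, aligned with STAR to mm9 with GENCODE gene models and assigned to genes with QuasR. What was deposited is a matrix of unnormalized counts with 1 column for each library. ChIP-seq libraries were not analysed here. Columns were assigned to lines by name. All 24 libraries were fitted together in edgeR 4.0.16 (R 4.3.3, filterByExpr, TMM scaling, quasi-likelihood F test), with p-values adjusted over all genes tested, and genes were called at an adjusted p below 0.05 and a log2 fold change beyond 1. RPKM used exon-union lengths of the mm9 annotation. Shares were compared with exact permutation tests. The fit was tested on simulated data. No pair of libraries within a line differed by as little as counting noise (chi-square per gene 3.42 to 303, the lowest in MBD2t).

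Alternatives were other scalings, filters and sample sets, DESeq2 1.42.0 (with limma 3.58.1 installed for edgeR), no fold limit, each library left out, and an older edgeR quasi-likelihood setting that was chosen after seeing the data, as were the alternatives for counts of the pathway list. All 9 members are named in every line. Other pathway genes are named when called in any comparison, though not for each one, with values for the 3 largest log2 fold changes per role in Mbd3 KO against WT. Levels of Mbd3 and Mbd2 check the labels. The members, the pathway list and the marker lists were chosen with earlier results of these data known. Promoter sequences are from RefSeq (GRCm38.p6). Sox1 was listed as a marker and was not analysed. Some genes are not reported here, and counts of the pathway list leave them out.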

Additional observations from a re-analysis of the deposited data

How the results depend on the processing

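Of 2142 values of members under alternatives, 2027 stayed on the same side of the call, 40 lost it, 75 gained it and none of those called reversed. The 5 members called lower in Mbd3 KO against WT were called under every alternative run. Dropping the fold limit gave 8 members called in Mbd3 KO against WT (60.2% of all genes), 3 in MBD2aΔGR against WT (8.55%), and against Mbd3 KO 8 in MBD3a (57.8%), 1 in MBD2a (8.77%) and 6 in MBD2aΔGR (46.9%). For MBD2aΔGR against WT the count was 0 under upper-quartile scaling, without a filter, with the 2 lines alone and with all lines but MBD2t, and for MBD2aΔGR against MBD2a it was 0 with the 2 lines alone. Leaving out 1 library gave 0 to 2 for MBD2aΔGR against WT (2 without s16), 1 to 3 for MBD2aΔGR against MBD2a, 0 to 1 for MBD2a against Mbd3 KO, and 3 to 5 for MBD2aΔGR against Mbd3 KO (5 without s05, s17 or s18). Of the other pathway genes, 0 were called in MBD2aΔGR against WT with the 2 lines alone and 1 with all lines but MBD2t, and leaving out 1 library gave 0 to 6 there and 7 to 14 in MBD2a against WT. The cause of these changes was not tested. No paired analysis was possible because the columns of the count matrix carry no replicate numbers. Depth limits the pathway genes with under 10 reads in a library more than it limits the 9 members.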

Other observations

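Over log2 CPM in the 24 libraries of 8 lines, the genes with the highest Pearson's r to Rara were Igsf21 (0.993), Fbxl16 (0.991) and Csrnp3 (0.990), and those to Rarb were Hdac9, Iglon5 and Tgfbr1 (0.992 each). Plcb1 (0.980) and Mex3b (0.979) were among the 3 closest to Cyp26b1. The other members had lower values: Crabp2 with 2810006K23Rik (0.966), Knstrn (0.961) and Gas2 (0.959), Crabp1 with Nefm (0.956), D930028M14Rik (0.953) and Sfrp2 (0.953), and Dhrs3 with Megf11 (0.949), Csdc2 (0.947) and 6330403K07Rik (0.947). Stra6 was closest to Osr1 (0.924), Tmem176a (0.910) and Wdr86 (0.909), Cyp26a1 to 2510002D24Rik (0.920), Lmbrd1 (0.907) and Man2b2 (0.902), and Rarg to Nr4a1 (0.918), Prss38 (0.916) and Kif16b (0.914). Over the 8 line means, 0 to 2 of each member's 3 genes were again among its 3 closest, so the ranking depends on whether libraries or lines are compared. The points share lines and scaling, and no p is given.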
